A study of Apis mellifera with 6 samples.

Results

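Hox and appendage patterning genes were looked for by symbol in the antennal RNA-seq data of adult worker bees. Of 14 symbols searched (Antp, Abd-A, Abd-B, Dfd, Lab, Ftz, Cad, Dll, Hth, Exd, En, Eve, Al and Dac, case ignored), 2 were listed, Antp and Dll, among 9362 listed genes. The symbols cad and eve are also in the honeybee annotation but were not analysed here, and the other 10 have no entry under these names. A gene annotated only under a LOC number could not be found by this search, so Antp and Dll need not be the only such genes with reads. The 6 libraries came from antennae of 3 pools of wild-type (wt) workers and 3 pools of dsx stop/stop workers, with RNA of 5 bees in each pool. In the mutant bees, each copy of dsx (doublesex), a transcription factor gene of the sex-determination pathway, has a stop mutation that was induced by CRISPR/Cas9 in each bee separately. The wt bees have no listed treatment. Single-end reads of 150 bp were assigned to transcripts by the authors. The value used for each gene is the base mean, the authors' mean of normalized read counts over all 6 libraries of both genotypes. It is 1 value per gene, so it gives neither the spread between pools nor a difference between wt and dsx stop/stop workers, and no test was made.

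Hox genes encode homeodomain transcription factors that give the segments of an insect body their identity, and they lie together in the genome. Antp (Antennapedia) is a Hox gene that acts in the thorax. In Drosophila, misexpression of Antp in the head turns antennae into legs, and the fly antenna normally forms in a region without Hox activity. Dll (Distal-less) encodes another homeodomain protein, which is needed to form the distal parts of insect limbs, antennae included. The question addressed here is which of these patterning genes had reads in the antennae of adult workers, after the appendage has been built.

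Dll was among the most abundantly read of the listed genes, which do not include every annotated gene. Its base mean was 5604.7 normalized counts in the authors' table, with a counting error of 38.5 (95% interval 5529 to 5680). This was the 250th highest of the 9362 values, higher than 97.3% of the listed genes and 20.3 times the median gene (275 normalized counts). Per 1000000 normalized counts summed over the listed genes, Dll had 568.

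Antp was detected at a low read count. Its base mean was 25.8 normalized counts in the authors' table, with a counting error of 2.61 (95% interval 20.7 to 30.9). It ranked 7174th of 9362 and lay above 23.4% of the listed genes, and the median gene had 10.7 times its value. Among the 7610 listed protein-coding genes alone, Antp lay above 13.1% and Dll above 96.8%. Per 1000000 normalized counts summed over the listed genes, Antp had 2.61.

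Both genes passed a base mean of 10, the limit used here for a gene with reads well above the counting floor, as 84.0% of all listed genes did. A base mean of 1 was reached by both and by 95.7% of all listed genes. Only Dll also passed a base mean of 100, as 64.3% of all listed genes did. The counting floor itself, 3 reads over the 6 libraries, corresponds to a base mean of 0.364 if every library has the same normalized level, and Antp was at 70.8 times this value. With all 3 reads in a single library it would lie between 0.212 and 2.48, depending on the library, and Antp was above this range too. If every library had the same normalized level, the base mean of Antp would stand for about 213 reads in all and that of Dll for about 46234 reads. Counting errors and intervals assume such equal levels and cover counting only. Like the floor and the read totals, they rest on approximate size factors taken from the smallest base means. The spread between pools was not analysed here, so the detection of Antp cannot be divided over the pools, and reads from a few libraries cannot be told apart from reads in all of them. In a whole antenna, few cells with much Antp RNA and many cells with little cannot be told apart either.

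Dll had 218 times as many normalized reads as Antp (95% counting interval 178 to 265). This ratio is taken to compare reads per gene and not transcripts. The authors name a normalization that divides by length. However, 32 genes with spans from 410 to 39941 bp share the smallest base mean of 0.0705. Unrounded values divided by length would not be shared in this way, but values rounded after such a division could be. The spans are those of genes and not of transcripts. Base means were therefore taken as not divided by length, but this was not settled. Transcript lengths were not used here. The ranks above are ranks of reads in the same sense.

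**Figure D1:**
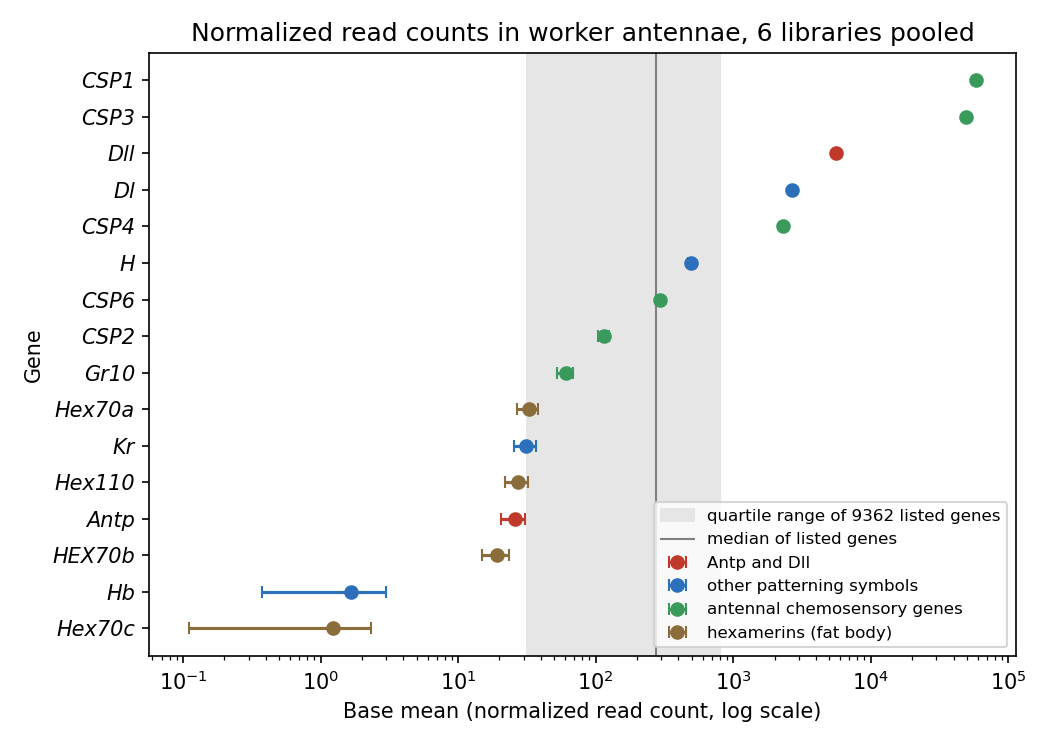
Base mean of each named gene (horizontal axis, normalized read count, log scale), with bars for the 95% counting interval, the grey band for the range from the lower to the upper quartile of the 9362 listed genes, and the line for their median. Dll at 5604.7 lies to the right of the band, between CSP3 and Dl, and Antp at 25.8 lies to the left of it, among the hexamerins Hex110 and HEX70b.

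Antennal and other markers were read to describe the labelled tissue. They could not decide it, because many of those chosen were not analysed here. A base mean of 10 did not separate them, since 6 of 6 listed chemosensory markers, 3 of 4 listed fat body markers and 84.0% of all listed genes passed it. The values of the chemosensory markers ran from 60.5 for the gustatory receptor gene Gr10 to 58480 for CSP1, which encodes a chemosensory protein and had the 11th highest base mean. Dll lay below CSP1 and CSP3 (48898) and above CSP4 (2303), CSP6 (294), CSP2 (114) and Gr10. The 4 listed hexamerin genes, which encode storage proteins made by the fat body, had base means of 1.22 (Hex70c), 19.2 (HEX70b), 27.3 (Hex110) and 32.6 (Hex70a). The value of Antp fell within this range, and its interval overlapped those of HEX70b, Hex110 and Hex70a. Whether tissue other than antenna contributed reads to Antp was not tested. The 9 neuronal and head gland markers chosen (4 and 5 genes) and the other antennal and fat body markers (5 and 1) were not analysed here.

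Of the other segment and appendage patterning genes, 79 symbols were looked for, but only 8 have an entry under these names in the annotation. Of these 8, 4 were listed, and Ubx, otd2, arm and Twi were not analysed here. Of the 4 listed genes, 3 passed a base mean of 10, beside 84.0% of all listed genes. Hb (hunchback), a gap gene that encodes a zinc finger protein of the early embryo, had a base mean of 1.68 with a counting error of 0.666, which corresponds to about 13.9 reads over the 6 libraries. Kr (Krüppel), another gap gene, had 31.0 with a counting error of 2.86, and its interval (25.4 to 36.6) overlapped that of Antp. The symbols H and Dl had base means of 494 and 2667. In Drosophila these letters stand for Hairless or, in lower case, hairy, and for Delta or, in lower case, dorsal, and the annotation used gives no product, so no role is given for them. Dll had the highest base mean among Antp, Dll and these 4 genes, and Hb the lowest. Apart from the pair of Antp and Kr, no 2 of these 6 genes that are next to each other in this order had overlapping counting intervals.

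Antp lies on chromosome LG16 of the Amel_HAv3.1 assembly from 3881429 to 4037081, a span of 155653 bp with 9 annotated transcripts. Within this span lie 2 annotated long noncoding RNA genes, LOC102655734 from 3895172 to 3908063 and LOC100578558 from 3916311 to 3919733. Both were looked up and are not among the listed genes, and the gene table used gives no strand, so it is not known here whether they could share reads with Antp. Antp is flanked by other landmarks of the Hox complex. Ubx (Ultrabithorax), the Hox gene of the hind thorax and front abdomen, lies from 3674143 to 3820751 and was not analysed here. The microRNA genes Miriab-4 (from 3476152), Mir10 (from 4243330) and Mir993 (to 4312602) lie further out on either side.

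Of the 22 annotated genes that lie wholly in the 836 kb from Miriab-4 to Mir993, 11 were listed, 5 of them protein-coding and 6 long noncoding RNA genes. Genes that cross an end of the stretch were left out. Among these were the listed protein-coding gene LOC102656349 at 0.378 and the listed long noncoding RNA gene LOC113219315 at 0.391. Antp had the third highest base mean of the 11. The 2 higher genes were LOC551506 at 59.3 normalized counts (counting error 3.96), from 4180294 to 4214923, and LOC724252 at 57.8 (counting error 3.91), from 4280665 to 4291655. The intervals of these 2 genes overlapped each other and not that of Antp. The annotation used gives neither of them a name. The other 2 protein-coding genes were LOC107965722, from 4232537 to 4244947, at 6.35 and LOC410643, from 3532002 to 3568351, at 2.70. They have no name either, and whether any of these unnamed genes is a Hox gene was not determined here. None of the 6 long noncoding RNA genes reached a base mean of 10, and the highest was LOC102654837 at 7.97. LOC102655707, which lies between Ubx and Antp, had a base mean of 3.83.

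No listed gene of this stretch had a high read count, and the other 11 annotated genes have no value here. Ubx and the microRNA genes were not analysed, whereas the rest, all with LOC numbers in the part read, are not among the listed genes. Of the 11 listed genes, 3 (27.3%) passed a base mean of 10 and 0 passed 100, and the median was 3.83. In the stretch of the same length before it, 47 of 62 listed genes (75.8%) passed 10, with a median of 61.8, and in the one after it, 50 of 68 (73.5%) passed, with a median of 156. The share over all listed genes was 84.0%. These shares are of listed genes only, which were 11 of 22 annotated genes between the microRNA genes, 62 of 78 before and 68 of 79 after. The stretches also differ in their makeup, since 5 of 11 listed genes were protein-coding between the microRNA genes, 41 of 62 before and 45 of 68 after. Among protein-coding genes that lie wholly in each stretch the medians were 25.8, the value of Antp itself, against 630 and 348. The ends of the stretch were set by the microRNA genes, with the values known, and no test was made.

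**Figure D2:**
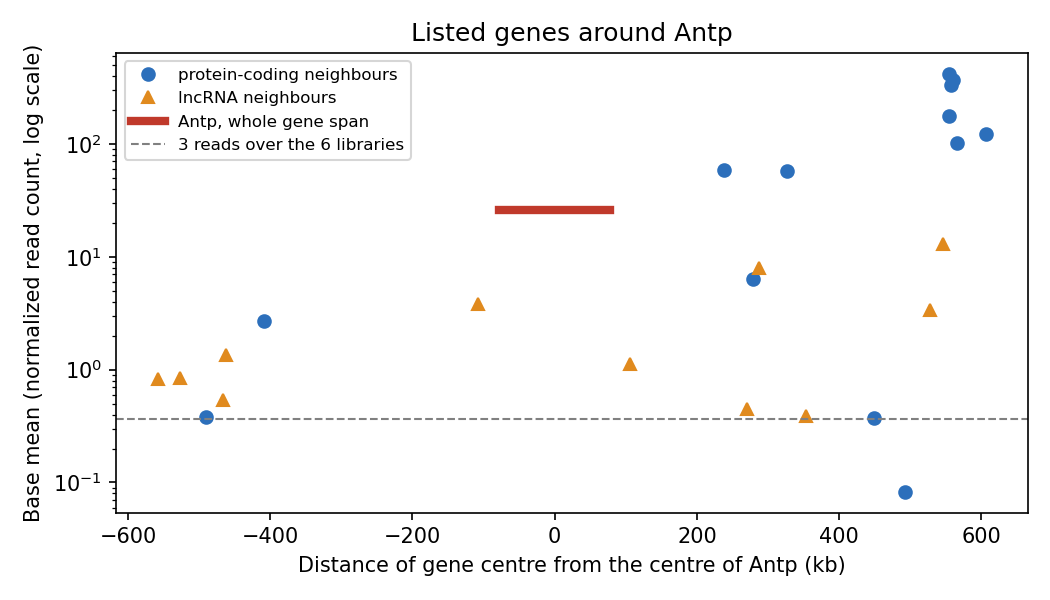
Base mean (vertical axis, normalized read count, log scale) of each listed gene within 500 kb of either end of Antp against the distance of its centre from that of Antp in kb, with protein-coding genes as circles, long noncoding RNA genes as triangles, Antp as a bar over its whole span and a dashed line at 3 reads over the 6 libraries. Antp at 25.8 is above 16 of the 24 neighbours, and 6 of the 8 higher ones lie at the far right, outside the stretch that ends with Mir993.

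Within 500 kb of either end of Antp, 24 genes were listed, with base means from 0.0828 to 418 and a median of 3.61. Of these, 8 were above Antp, all of them protein-coding. Beside LOC551506 and LOC724252, the other 6 lie beyond Mir993, and their values ran from 101 (LOC100578237) to 418 (LOC413799). On LG16 as a whole, Antp ranked 216th of 320 listed genes.

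Dll lies on chromosome LG13 from 6443136 to 6519079, a span of 75944 bp with 6 annotated transcripts, and no other annotated gene overlaps it. Within 500 kb of either end, 38 genes were listed, of which 27 (71.1%) passed a base mean of 10, and their median was 114. Only 2 of the 38 were above Dll, LOC410454 at 17122 and LOC408429 at 13656, both before it on the chromosome. Within 250 kb, 0 of 22 listed genes were above Dll, and the highest was LOC408430 at 3670. The nearest listed genes on either side, the long noncoding RNA genes LOC102654734 and LOC102654690, had base means of 6.73 and 203. The nearest listed protein-coding gene before Dll was Eth, which encodes ecdysis-triggering hormone, at 2.20. On LG13 as a whole, Dll ranked 9th of 355 listed genes.

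**Figure D3:**
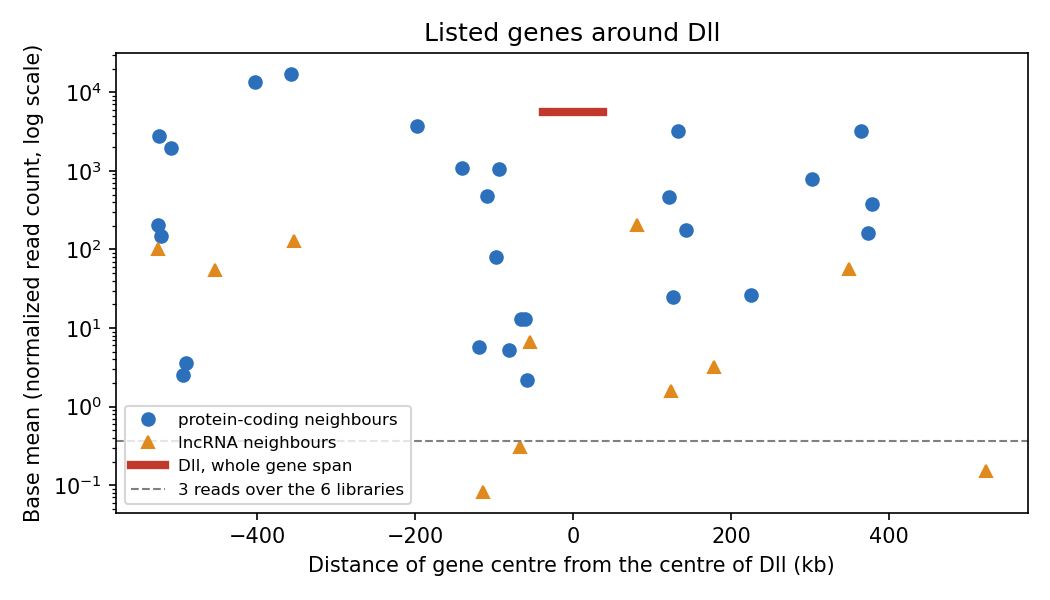
Base mean (vertical axis, normalized read count, log scale) of each listed gene within 500 kb of either end of Dll against the distance of its centre from that of Dll in kb, with the same symbols as for Antp. Dll at 5604.7 stands above 36 of its 38 neighbours, and the genes closest to it on the left, such as Eth at 2.20 and LOC102654734 at 6.73, have few reads.

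Beside these neighbours on the chromosome, the listed genes with the base means closest to the members carry no name in the annotation used. They were LOC100578193 (25.8) and LOC100578733 (25.8) for Antp, and LOC408697 (5579) and LOC552756 (5616) for Dll, all protein-coding. These 4 genes were chosen by read count alone, and no pattern across conditions was compared.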

How the data were processed

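RNA-seq of worker antennae was done with 3 pools of 5 bees per genotype (wt and dsx stop/stop), grouped by the labelled genotype. The authors demultiplexed and trimmed the reads with bcl2fastq2, mapped them to the Amel_HAv3.1 transcriptome with kallisto, normalized the estimated counts, by their account, with the transcripts-per-kilobase-million method, and used DESeq2. Versions of kallisto and DESeq2 are not given in the sources used here. The deposited table holds 8 columns. The gene ID and the base mean, the authors' mean of normalized counts, were read with decimal commas as points. The other 6 columns hold the authors' own comparison of the genotypes (log2 fold change, its standard error, Wald statistic, p-values and their log) and were not used. The table read here follows the alphabet up to LOC724262, and later IDs, upper case first, were not analysed here apart from a few at its top.

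Size factors of the 6 libraries were read from base means under 1 that at least 3 genes shared and that are not sums of smaller ones (93 genes). They ran from 0.202 to 2.36, an 11.7-fold difference, had a geometric mean of 1 and were not assigned to genotypes. The range of reads mapped that the paper states is narrower than this difference, which was not resolved here. The counting errors, the floor of 3 reads and the read totals given above rest on these size factors. The number of reads in each library was not used here. The counting error of a base mean is the square root of its value times the sum of the inverse size factors, divided by 6, with a normal 95% interval. This formula was tested on simulated data, which cannot show whether the size factors are right or how far the pools differ. Of the 9362 listed IDs, 9361 matched the RefSeq gene table of Amel_HAv3.1, which gave positions, with all coordinates 1-based. The members, lists, limits and windows were chosen with earlier results of these data known. All listed members, all listed genes of the lists and the genes next to the members in base mean were named, as were neighbours on the chromosome, which were chosen after their values were seen. Alternatives were other base mean limits, other background genes and other windows. No sequence of these genes was used here. Python 3.11.15, numpy 2.4.6, pandas 2.3.3 and matplotlib 3.10.9 were used.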

Additional observations from a re-analysis of the deposited data

How the results depend on the processing

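With the base mean limit at 1 in place of 10, both Antp and Dll passed, and with 100 the number was 1 in place of 2 (Dll). Of the 4 genes listed under other patterning symbols, H and Dl included, 4 passed at 1 and 2 at 100, against 3 at 10. The median percentile of Antp and Dll was 60.4 among all listed genes, 55.0 among protein-coding genes and 58.6 when genes under a base mean of 1 were left out. It followed Antp, which moved from 23.4 to 13.1 and 19.9, while Dll stayed at 97.3, 96.8 and 97.2. With windows of 250 kb and 1000 kb in place of 500 kb, an alternative chosen after seeing the data, the median base mean of the neighbours was 6.35 and 50.9 in place of 3.61 for Antp, and 25.7 and 140 in place of 114 for Dll. Base means per kb were not computed, because the gene table gives the span of a gene and not the length of its transcripts. No paired analysis was possible because each gene has 1 base mean for all libraries together, with no replicate number. A comparison of the genotypes with other normalizations, filters or tests, and with each library left out, was therefore not run. Depth limits genes with few reads, such as Hb and Hex70c, whose counting errors were 39.6% and 46.4% of their base means, against 10.1% for Antp and 0.686% for Dll.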

Other observations

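The values of Eyg and Emc, which are on none of the lists and were chosen after their values were seen, are given as a description only. Eyg (eyegone), a Pax gene, had a base mean of 1551 (counting error 20.2), and Emc (extramacrochaetae), which encodes a helix-loop-helix protein that restrains proneural factors, had 4643 (counting error 35.0). In read count Eyg lay above 87.0% and Emc above 96.4% of the listed genes, and both were below Dll. These are taken as reads per gene, not divided by length.

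The smallest base means that genes share were assumed to belong to reads in a single library, but genes near the sum of 2 such values did not meet that sum. Within 0.5% of the sum 0.153352 there were 9 genes, with base means from 0.153086 to 0.153319, and 0 of them were within 5e-08 of it. Near the sums 0.161139 and 0.148808 there were 11 and 4 genes, all lower than the sum, and 0 of them equalled it at this tolerance. A single size factor per library therefore does not give every value exactly, and those behind the counting errors of Antp and Dll are approximate.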
